A study of Mus musculus with 10 samples.

Results

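Oligodendrocyte lineage genes were followed as 7 genes of the ribosome footprint count table, namely Olig1, Olig2, Sox8, Sox10, Pdgfra, Cspg4 and Bcan, taken by gene symbol out of 22373 genes. The footprints came from the neocortex of wild-type CD-1 mice at embryonic days E12.5, E14, E15.5 and E17 and on the day of birth, P0. Each stage had 2 Ribo-seq libraries, 10 in all, each made from the pooled brains of several animals of both sexes, and no stage was treated or carried a mutant allele. Ribo-seq sequences the stretches of mRNA that ribosomes protect from RNase digestion, so a count is the number of footprints assigned to a gene. Levels are given as CPM, footprints per 1000000 in a library whose size was scaled by the trimmed mean of M values (TMM), with replicate 1 given first.

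Oligodendrocytes wrap axons in myelin and descend from oligodendrocyte precursor cells (OPCs). In the forebrain the first OPCs form in the ventral germinal zones, the ganglionic eminences among them, and migrate into the neocortex, and later ones are made by the dorsal progenitors themselves. Olig1 and Olig2 are basic helix-loop-helix factors of OPC specification, Sox8 and Sox10 are SoxE factors of the lineage, Pdgfra is the OPC receptor for the mitogen PDGF-A, and Cspg4 (NG2) and Bcan (brevican) are chondroitin sulfate proteoglycans. None of them is private to OPCs, since Olig genes also mark ventral progenitors, Pdgfra meningeal fibroblasts, Cspg4 pericytes, Sox10 the neural crest, and Bcan radial glia and astrocytes.

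Olig1 and Olig2 lie next to each other on chromosome 16, with no protein-coding gene between them, and 1 long non-coding RNA gene that overlaps the end of Olig2 in the RefSeq annotation. Of the 7 genes, 5 were matched in the table of RefSeq upstream sequences used here, Olig1 and Sox10 being the other two. The 250 bases before the start of Olig2 (chr16:91225300-91225549) and of Pdgfra (chr5:75152001-75152250), both on the plus strand of GRCm38.p6, are shown because these genes had the most different courses among those with a sequence, as measured at the end of the results. Capitals mark matches, on either strand, to the E-box CANNTG, the core letters bound by basic helix-loop-helix factors, or to the Sox letters ACAAAG and ACAATG.
Olig2: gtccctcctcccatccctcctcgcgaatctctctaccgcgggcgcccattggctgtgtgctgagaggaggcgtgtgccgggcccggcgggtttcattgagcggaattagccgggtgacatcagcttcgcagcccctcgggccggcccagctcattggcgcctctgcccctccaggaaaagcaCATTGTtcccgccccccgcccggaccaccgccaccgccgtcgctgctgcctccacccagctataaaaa
Pdgfra: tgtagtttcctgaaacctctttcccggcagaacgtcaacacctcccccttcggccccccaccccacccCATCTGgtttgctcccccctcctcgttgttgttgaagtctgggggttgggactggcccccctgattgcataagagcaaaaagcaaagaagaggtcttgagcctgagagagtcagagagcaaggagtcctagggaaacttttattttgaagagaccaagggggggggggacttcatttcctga
The Olig2 window held 1 Sox match and 0 E-box matches, and the Pdgfra window held 1 E-box match and 0 Sox matches. Among 32841 mouse windows of the same length, 66.2% held an E-box and 25.2% a Sox match, so neither match was rare.

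The libraries held from 7544404 to 36129988 footprints, the lowest being P0 replicate 1, in which 1 footprint was worth 0.109 CPM. The P0 libraries also differed more from each other than those of other stages did, with an SD of the log2 ratio between replicates of 0.532 against 0.125 to 0.216. Scaling mattered between early and late stages, because total counts in place of TMM put the median log2 fold change of all genes at 0.51 and not -0.01 in P0 against E12.5. The study's methods describe the 2 libraries of a stage as biological duplicates, each made from a pool of brains. The tests therefore measure the spread between 2 pools per stage. For each gene the estimate of that spread was shared by all stages, so the P0 libraries entered every comparison. A footprint level joins the number of cells, the mRNA per cell and the ribosomes per mRNA, which footprint counts of bulk tissue alone cannot tell apart. The 12 genes of the radial glia and astrocyte list summed to between 1333 and 2407 CPM in the 10 libraries, most of it from Fabp7, with stage means of 969 to 2054 CPM, while other genes of the list went far in both directions.

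Over the 5 stages the summed level of the 7 genes went from 17.1 and 20.9 CPM at E12.5 to 103 and 67.7 CPM at P0, and most of the gain was in Olig1 and Olig2. Of the 7 genes, 6 had at least 32 footprints in the pair of libraries of some stage and were tested, and Cspg4 was not. Called here means an adjusted p below 0.05 with 1 stage at least 25% above the other. Between E12.5 and E14 0 of 6 were called, in a comparison that called 0.638% of 13484 genes. There limma gave 1 member an unadjusted p under 0.05, Sox8, and edgeR and DESeq2 called 0 as well. Between E14 and E15.5 3 of 6 were called, 1 higher (Olig1) and 2 lower (Pdgfra, Bcan). Of all genes 36.1% were called there, 16.5% higher and 19.6% lower. Between E15.5 and E17 3 of 6 were called, all higher (Olig1, Olig2, Pdgfra), against 9.04% of all genes in either direction and 5.61% higher. Between E17 and P0 4 of 6 were called, all higher (Olig1, Sox8, Sox10, Bcan), against 20.5% in either direction and 9.46% higher.

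Against E12.5, 3 of 6 were called at E17, all higher (Olig1, Olig2, Sox8), beside 54.7% of all genes in either direction and 26.9% higher. For P0, 4 of 6 were called, all higher (Olig1, Olig2, Sox8, Sox10), beside 62.1% in either direction and 30.1% higher. The shares lower were 27.8% at E17 and 32% at P0. These shares are also the background for the gene lists below. At P0 the 6 genes had a median log2 fold change of 1.57 against E12.5, beside -0.01 over all genes. Called in either direction, the share of these genes over the whole period was near the background. The moderated F test across stages called 6 of 6, with adjusted p from 0.000251 for Pdgfra to 0.00583 for Bcan, and 63.8% of all genes.

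**Figure D1:**
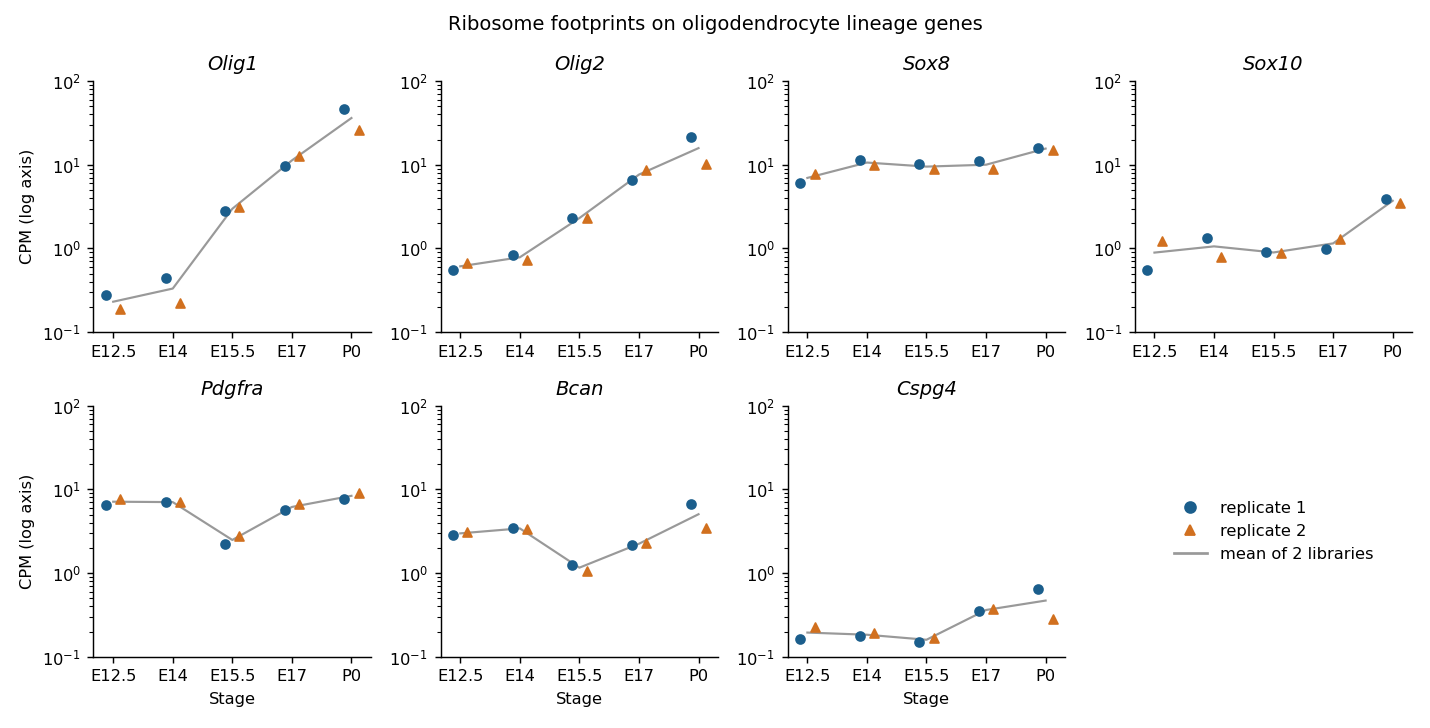
CPM of each of the 7 genes by stage on a log axis, with 1 point per library and a line through the mean of the 2 libraries. Olig1 and Olig2 climb from E14 on, Pdgfra and Bcan dip at E15.5, Sox8 stays between 6.11 and 16.0 CPM, Sox10 steps up at P0, and Cspg4 stays under 1 CPM.

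Olig1, which promotes OPC formation and later maturation, had the widest range. Its level was 0.275 and 0.187 CPM in the E12.5 libraries, from 5 footprints in each. At E14 it was 0.442 and 0.222 CPM, from 10 and 7 footprints. The 4 early libraries therefore stood near the detection limit, and E12.5 and E14 overlapped. At E15.5 the level was 2.83 and 3.12 CPM, at E17 9.72 and 12.8 CPM, and at P0 46.3 and 26.0 CPM. From E15.5 on, both libraries of each stage lay above both of the stage before.

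The step into E15.5 was the largest for Olig1, at 9.54-fold (log2 fold change 3.25 ± 0.76 (SE), adjusted p = 0.011). That call was lost when either E14 library was left out, with adjusted p of 0.0657 and 0.0949. Olig1 rose a further 3.74-fold into E17 (1.90 ± 0.31, adjusted p = 0.0142) and 3.0-fold into P0 (1.59 ± 0.26, adjusted p = 0.00561). These calls were lost under 5 of 21 and 2 of 20 alternatives. The call into E17 was lost when any one library of E15.5 or E17 was left out (log2 values from 1.71 to 2.11, adjusted p from 0.0648 to 0.152), in fits that called 0 to 18 of all 13484 genes, and that into P0 without E17 replicate 1 (adjusted p = 0.0601). From E12.5 to P0 the fitted change was 139-fold (7.12 ± 0.93, adjusted p = 0.000248), and its log2 value stayed between 6.75 and 7.65 under every alternative.

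Olig2, without which OPCs fail to form, followed the same order of stages over a narrower range. The E12.5 libraries gave 0.550 and 0.673 CPM and the E14 libraries 0.839 and 0.729 CPM, so that E14 lay just above E12.5 without a difference beyond the spread (log2 fold change 0.29 ± 0.75, adjusted p = 0.891). The level reached 2.29 and 2.32 CPM at E15.5, 6.54 and 8.71 CPM at E17, and 21.4 and 10.2 CPM at P0. No stage overlapped the one before it, but the P0 libraries differed from each other by 2.11-fold.

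Into E15.5 the change of Olig2 was 2.94-fold but was not called (1.55 ± 0.55, adjusted p = 0.056), and it was called under 8 of 20 alternatives, edgeR (adjusted p = 0.0195) and DESeq2 (adjusted p = 0.00485) among them. Olig2 rose 3.24-fold into E17 (1.70 ± 0.36, adjusted p = 0.0272), a call lost in 7 of the 10 fits with 1 library left out, each one of E15.5 and E17 among them (adjusted p up to 0.206). The 1.80-fold difference between E17 and P0 was not called (0.85 ± 0.30, adjusted p = 0.0786), and it was called under 2 of 20 alternatives. Over the whole period Olig2 rose 21.1-fold (4.40 ± 0.62, adjusted p = 0.000385), with log2 values from 3.98 to 5.06 under the alternatives.

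Within a library the balance of the 2 Olig genes does not depend on scaling. Olig1 had 0.500, 0.278, 0.526 and 0.304 footprints for each Olig2 footprint in the 4 libraries of E12.5 and E14. The ratio was 1.24 and 1.35 at E15.5, 1.49 and 1.47 at E17, and 2.16 and 2.55 at P0. Each stage after E14 thus had a higher ratio in both libraries than any earlier stage. In the early libraries, however, the counts were small: Olig1 was 33.3% of the pair in E12.5 replicate 1, with a 95% exact binomial interval of 11.8% to 61.6%. The intervals at E15.5 (47.5% to 62.9% and 48.4% to 66.0%) also overlapped those at E17 (55.4% to 64.0% and 55.4% to 63.6%). At P0 the share was 68.4% (64.6% to 72.0%) and 71.9% (69.5% to 74.1%). These intervals cover counting error only, and the ratio is not corrected for the length of the coding sequences.

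**Figure D2:**
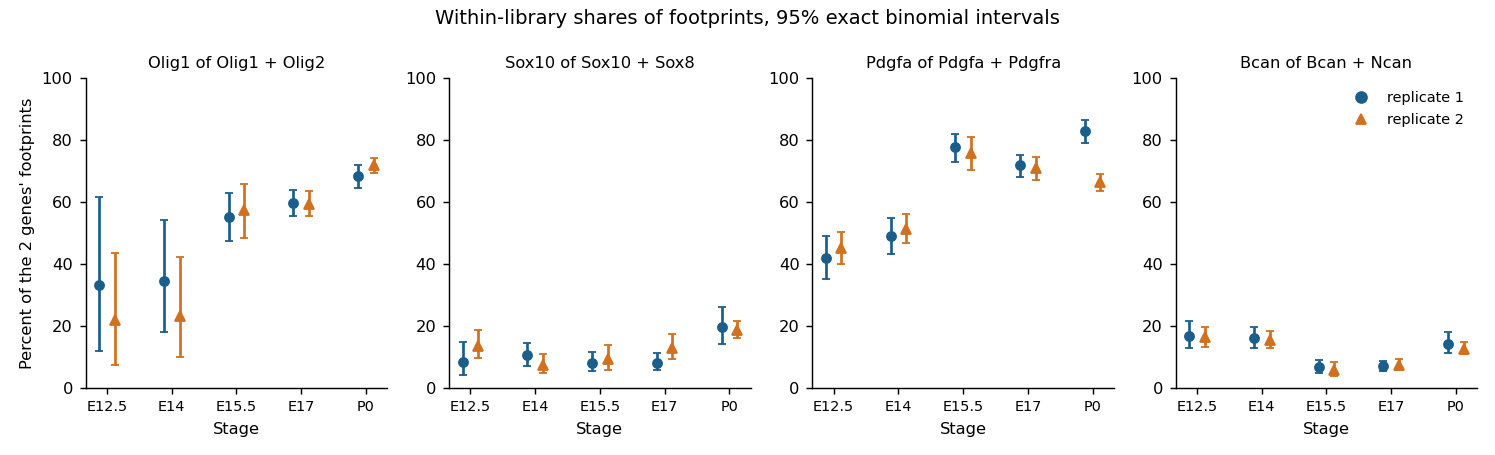
Share of the first gene among the footprints of a pair in each library, in percent, with 95% exact binomial intervals. The Olig1 share goes from at most 34.5% at E12.5 and E14 to 68.4% and 71.9% at P0, and the Bcan share of Bcan and Ncan is lowest at E15.5.

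The SoxE factors spanned a narrower range of levels than the Olig genes. Sox8, which acts with Sox9 and Sox10 in glial specification, stood at 6.11 and 7.82 CPM at E12.5, 11.4 and 9.89 CPM at E14, 10.2 and 8.78 CPM at E15.5, and 11.1 and 8.90 CPM at E17. At P0 it was 16.0 and 15.2 CPM, above every earlier library. E14, E15.5 and E17 overlapped, and all 3 lay above E12.5. The 1.51-fold difference between E12.5 and E14 was not called (0.60 ± 0.17, adjusted p = 0.144). Sox8 rose 1.55-fold from E17 to P0 (0.64 ± 0.16, adjusted p = 0.0288) and 2.22-fold from E12.5 to P0 (1.15 ± 0.17, adjusted p = 0.000542). At E17 it was 1.43-fold above E12.5 (0.51 ± 0.17, adjusted p = 0.0336), which was lost without replicate 1 of either stage and in DESeq2 (adjusted p from 0.0579 to 0.206). The call into P0 was lost under 5 of 20 alternatives, the omission of either E17 library among them, with log2 values from 0.48 to 0.80 under the alternatives.

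Sox10, the factor that drives the lineage and its myelin genes, was low throughout the embryonic stages. The libraries gave 0.550 and 1.23 CPM at E12.5, 1.33 and 0.792 CPM at E14, 0.904 and 0.887 CPM at E15.5, and 0.984 and 1.31 CPM at E17. These 4 stages overlapped except E15.5 and E17, and none of their comparisons was called. At P0 the level was 3.92 and 3.51 CPM, above all 8 embryonic libraries. Sox10 rose 3.19-fold into P0 (1.67 ± 0.29, adjusted p = 0.00701) and 3.95-fold from E12.5 to P0 (1.98 ± 0.36, adjusted p = 0.00146). The call into P0 was lost under 2 of 19 alternatives, the fit without E17 replicate 1 among them. Sox10 made up 7.42% to 13.6% of the joint Sox8 and Sox10 footprints in the embryonic libraries, and 19.7% and 18.8% at P0.

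**Figure D3:**
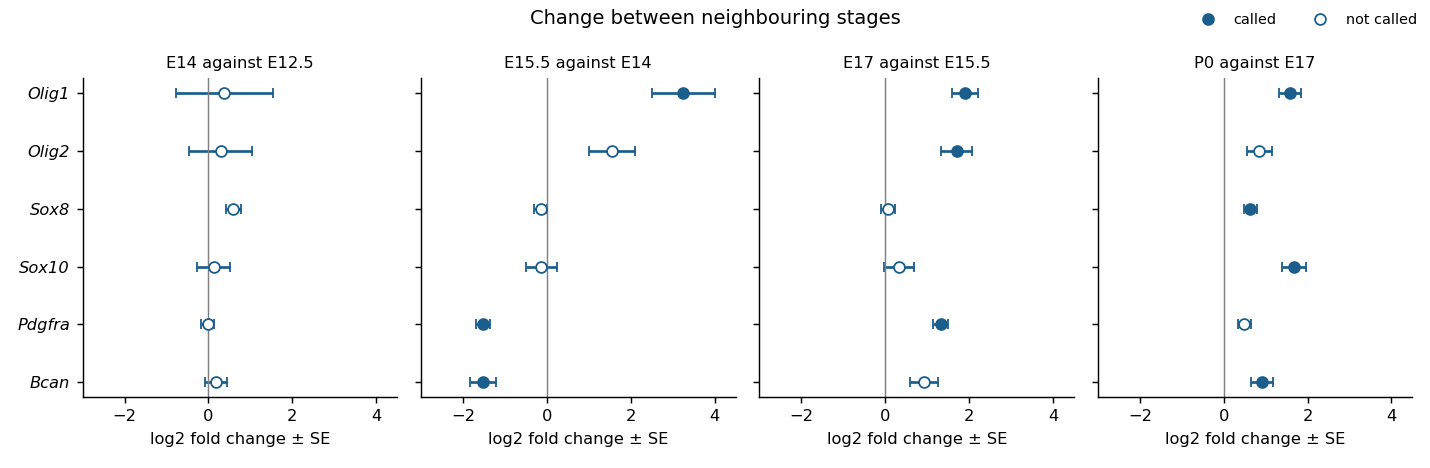
Log2 fold change with its standard error for the 6 tested genes in the 4 comparisons of neighbouring stages, from the limma-voom model. Filled points were called: none at E14 against E12.5, 3 in each of the next comparisons and 4 at P0 against E17.

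Pdgfra, the receptor whose signalling expands OPCs, had a dip and not a climb. It stood at 6.55 and 7.70 CPM at E12.5 and at 7.02 and 7.07 CPM at E14, and these stages overlapped. At E15.5 it was 2.23 and 2.74 CPM, below every other library. The level returned to 5.68 and 6.65 CPM at E17 and to 7.61 and 9.14 CPM at P0.

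In the step into E15.5 Pdgfra fell 2.87-fold (-1.52 ± 0.17, adjusted p = 0.000421), and the call held under all 20 alternatives. It then rose 2.50-fold into E17 (1.32 ± 0.17, adjusted p = 0.00797), a call lost when any one library of E15.5 or E17 was left out, with adjusted p from 0.0577 to 0.125. At P0 it was not called against E17 (0.49 ± 0.15, adjusted p = 0.0589) nor against E12.5 (0.26 ± 0.16, adjusted p = 0.172). With total counts in place of TMM, both of these were called, at 0.60 and 0.79, where the medians of all genes were 0.08 and 0.51. In all, the change against E17 was called under 4 of 20 alternatives and that against E12.5 under 1 of 19.

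Meningeal fibroblast markers moved with the dip of Pdgfra. The 10 genes of that list summed to 70.4 to 110 CPM in the 4 libraries of E12.5 and E14, to 4.82 and 4.14 CPM at E15.5, to 9.84 and 6.57 CPM at E17, and to 5.11 and 4.32 CPM at P0. All 10 were called lower at E15.5 against E14, with a median log2 fold change of -4.36, and the collagen Col3a1 went from 16.1 and 17.1 CPM to 0.482 and 0.380 CPM. Choroid plexus markers moved in the same step, since 7 of the 7 tested were lower and the list sum went from 1157 and 1163 CPM to 13.8 and 11.4 CPM. The part of these cells in the fall of Pdgfra was not tested. In the rise of Pdgfra from E15.5 to E17, 1 of 10 meningeal genes was called higher, beside 5.61% of all genes. All 10 were fitted above 0 there, with a median log2 fold change of 0.57. At P0 the list was at 5.11 and 4.32 CPM while Pdgfra was at 7.61 and 9.14 CPM.

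**Figure D4:**
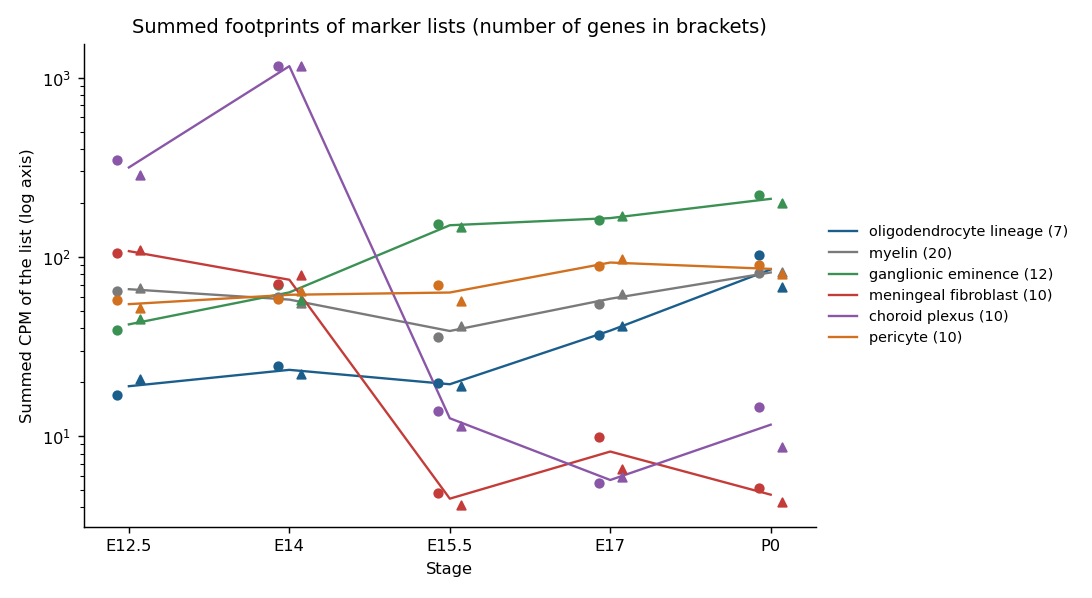
Summed CPM of 6 gene lists by stage on a log axis, with 1 point per library and lines through the means. The meningeal fibroblast and choroid plexus lists fall between E14 and E15.5, and the ganglionic eminence and oligodendrocyte lineage lists reach their highest sums at P0.

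Among the PDGF ligands, Pdgfa, the ligand that neurons and astrocytes present to OPCs, rose over the period. Its level was 4.73 and 6.36 CPM at E12.5 and 37.4 and 18.1 CPM at P0, a 4.41-fold rise (2.14 ± 0.33, adjusted p = 0.000591). Pdgfa gave 0.723 to 1.06 footprints for each Pdgfra footprint at E12.5 and E14, and 1.98 to 4.91 from E15.5 on. Of the 6 genes on the PDGF list, Pdgfd was not tested, and 1 (Pdgfa) was higher and 3 lower at P0 against E12.5, with a median of -0.87. Pdgfc was 1.83-fold lower (-0.87 ± 0.25, adjusted p = 0.0143), and Pdgfrb, the pericyte and fibroblast receptor, was lower (-2.51 ± 0.20, adjusted p = 1.6e-05).

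Bcan, a matrix proteoglycan of OPCs, astrocytes and radial glia, had a dip at the same stage as Pdgfra. It was at 2.86 and 3.10 CPM at E12.5 and at 3.45 and 3.39 CPM at E14, and it dropped to 1.27 and 1.06 CPM at E15.5. It stood at 2.19 and 2.29 CPM at E17 and at 6.63 and 3.46 CPM at P0. E17 lay below E14 in all libraries and P0 above every earlier library, though P0 replicate 2 exceeded E14 replicate 1 by little. Bcan fell 2.89-fold into E15.5 (-1.53 ± 0.31, adjusted p = 0.00623) and was called in all 19 alternatives that tested it.

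The gain into E17 was not called (0.92 ± 0.32, adjusted p = 0.117), and it was called under 5 of 20 alternatives. At E17 Bcan was not called against E12.5 (-0.42 ± 0.28, adjusted p = 0.231), and it was called lower under 3 of 19 alternatives. Into P0 Bcan rose 1.88-fold (0.91 ± 0.26, adjusted p = 0.0439), but this call was lost under 13 of 19 alternatives, among them the fit with the replicate number as a block (0.98, adjusted p = 0.0519). Against E12.5 it was not called at P0 (0.49 ± 0.26, adjusted p = 0.138), and it was called with total counts (1.01) and without P0 replicate 2 (1.15). Its relative Ncan (neurocan) was not called in the step into E15.5 (-0.07 ± 0.20, adjusted p = 0.84), at 18.1 and 18.7 CPM before and 17.8 and 17.4 CPM after, and Bcan went from 16.0% and 15.3% of their joint footprints to 6.65% and 5.71%.

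Cspg4, the NG2 proteoglycan by which OPCs are often recognised, was too sparse for the model. It had 67 footprints in all, from 3 to 12 in a library, and the levels were 0.165 and 0.224 CPM at E12.5, 0.177 and 0.190 CPM at E14, 0.151 and 0.169 CPM at E15.5, 0.349 and 0.375 CPM at E17, and 0.653 and 0.286 CPM at P0. All 4 libraries of E17 and P0 lay above the 6 earlier ones. Pooled over the libraries of a stage, 21 footprints at E17 against 9 at E15.5 gave a ratio of 2.28 with a 95% counting interval of 1.00 to 5.66, and 18 at P0 against 9 at E12.5 gave 1.76 (0.750 to 4.44). Without the filter on low counts limma called Cspg4 in none of the 6 comparisons, with adjusted p from 0.202 to 0.974 and an unadjusted p of 0.0419 at E17 against E15.5. The pericyte list, whose cells also make NG2, summed to 51.8 to 70.0 CPM up to E15.5 and to 80.8 to 96.8 CPM at E17 and P0. Rgs5 and Higd1b carried that gain at E17. Rgs5 went from a mean of 25.4 CPM at E12.5 to 63.8 CPM at E17 and Higd1b from 0.628 to 15.1 CPM. In P0 replicate 2, 12.7 of the 80.8 CPM came from Anpep, which was at 0.109 CPM in P0 replicate 1. Over the 9 tested genes of the list 2 were higher and 3 lower at E17 against E12.5, with a median of -0.28. The part of pericytes in the level of Cspg4 was not tested.

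The wider set of lineage regulators went mostly the other way from the Olig genes. Of 19 genes, 15 were tested, and at P0 against E12.5 3 were higher and 11 lower, with a median of -1.38. Of all genes, 30.1% were called higher and 32% lower in that comparison, which is also the reference for the lists that follow. Nkx2-2, which marks committed OPCs, had 0 footprints at E12.5 and 63 at P0, at least 18.5-fold higher against a floor of 3 footprints over the stage (adjusted p = 0.00239). Id2, an inhibitor of basic helix-loop-helix factors, rose (2.29 ± 0.13, adjusted p = 2.25e-06). Its relative Id4 fell (-3.35 ± 0.26, adjusted p = 1.39e-05), and so did the remodeller Chd7 (-3.26), the homeobox factor Prrx1 (-2.68) and the gliogenic factor Sox9 (-2.08). Sox9 was at 45.0 and 49.5 CPM at E12.5 and at 12.7 and 10.3 CPM at P0, opposite in direction to its partners Sox8 and Sox10. With total counts 8 in place of 11 of these genes were lower.

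Hedgehog signalling, which induces Olig2 in the ventral forebrain, was represented by 13 genes, of which 9 were tested. Of these, 8 were lower and 1 higher at P0 against E12.5, with a median of -3.12, and 7 were lower with total counts. The co-receptors Cdon (-4.94 ± 0.29, adjusted p = 3.04e-06) and Gas1 (-3.28) fell with the effectors Gli3 (-3.52) and Gli2 (-3.41). Ptch1, the receptor that the pathway itself induces, was higher (1.28 ± 0.42, adjusted p = 0.0257). The ligand Shh and the target Gli1 did not pass the filter, with at most 5 and 6 footprints in a library.

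The matrix genes related to Bcan and Cspg4 were 12, of which 9 were tested and 6 were higher and 2 lower at P0 against E12.5, with a median of 0.98. Cspg5 rose 3.10 ± 0.19 on the log2 scale (adjusted p = 3.75e-06) and the tenascin Tnc 2.95 ± 0.27 (adjusted p = 3.02e-05). Ncan rose 0.98 ± 0.21 (adjusted p = 0.00365), and Ptprz1 peaked at E17 with 54.3 and 55.0 CPM. Vcan (versican) fell (-1.17 ± 0.13, adjusted p = 9.14e-05), from 57.1 and 51.3 CPM to 22.6 and 25.0 CPM.

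Of 16 further genes known from OPCs and newly formed oligodendrocytes, 11 were tested, and 7 were higher and 2 lower at P0 against E12.5, with a median of 1.01. Gpr17, a receptor of cells leaving the OPC state, had 0 footprints in the 4 libraries of E12.5 and E14, 34 at E17 and 60 at P0, which is at least 17.6-fold higher at P0 than at E12.5 (adjusted p = 0.000653). Lingo1 (2.88 ± 0.23, adjusted p = 1.61e-05), Epn2 (1.32) and the kinase Fyn (1.01) rose as well, and these are also neuronal genes. Ednrb, the endothelin receptor B, fell (-1.03 ± 0.16, adjusted p = 0.000721).

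The myelin genes, which oligodendrocytes switch on as they mature, moved in both directions. Of 20, 12 were tested, and 6 were higher and 4 lower at P0 against E12.5, with a median of 1.00. Among all genes 30.1% were higher and 32% lower there. Opalin had 0 footprints in all libraries, Mog at most 1 in a library and Mobp at most 4. Mbp, whose locus also encodes the golli proteins of neurons, rose 2.69-fold (1.43 ± 0.18, adjusted p = 0.000193), from 22.6 and 23.1 CPM to 61.3 and 61.9 CPM. Cnp rose 2.15-fold from E17 to P0 (1.10 ± 0.13, adjusted p = 0.00191). Cldn11, which the arachnoid makes as well as myelin, fell (-5.94 ± 0.36, adjusted p = 3.68e-06), and Enpp2, also made by the choroid plexus, fell (-1.56 ± 0.24, adjusted p = 0.000579).

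**Figure D5:**
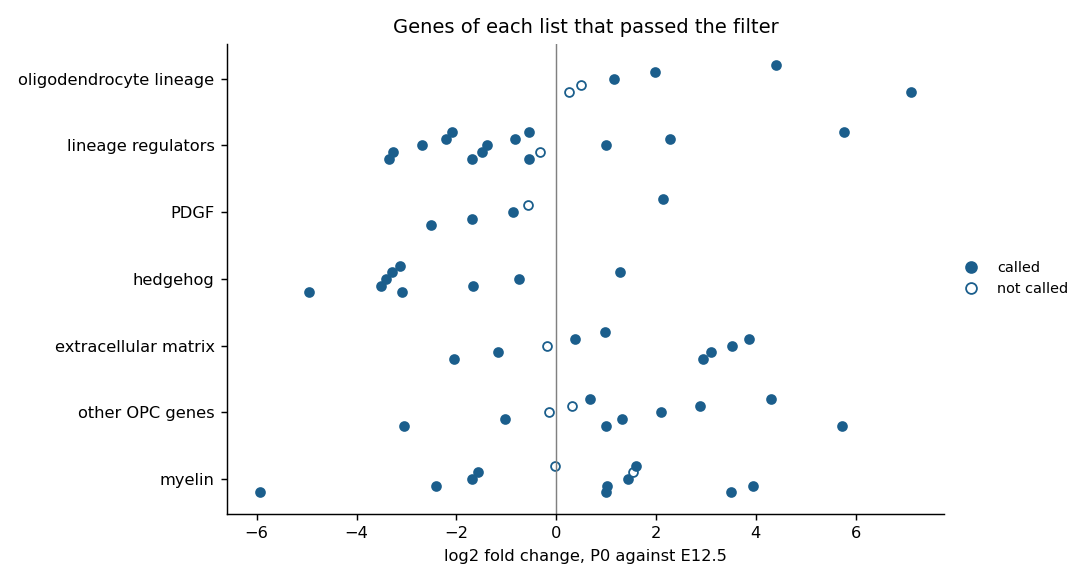
Log2 fold change of P0 against E12.5 for each tested gene of 7 lists, filled where called. Olig1 and Olig2 lie furthest right in their list, at 7.12 and 4.40, and 8 of 9 hedgehog genes lie on the left with called decreases.

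Ganglionic eminence markers rose with the Olig genes. Of the 12 genes, 10 were tested, and 9 were higher and 0 lower at P0 against E12.5, with a median of 3.13. The list summed to 38.9 and 45.1 CPM at E12.5, 69.3 and 57.5 CPM at E14, 147 to 169 CPM at E15.5 and E17, and 223 and 199 CPM at P0. Gad1 (4.74), Dlx1 (3.46), Lhx6 (3.20) and Dlx2 (3.06), genes of interneurons and their progenitors, were among them, and they are also carried into the neocortex by migrating interneurons. From E15.5 to E17, where Olig1 and Olig2 both rose, 0 of the 10 were called by limma, edgeR or DESeq2, and 2 had an unadjusted p under 0.05 in limma. Of all genes limma called 9.04% there, 5.61% higher. Of the 10, 8 were fitted above 0 and 2 below, with a median of 0.17. The part of ventral cells in the levels of Olig1 and Olig2 was not tested.

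For Sox10, the neural crest gene Foxd3 had at most 4 footprints in a library, and the Schwann cell precursor gene Cdh19 at most 1. Egr2, a factor of Schwann cell myelination that some neurons also make, had 0 to 4 footprints in each embryonic library and 4 and 24 at P0 (0.435 and 0.573 CPM), so that it was highest at the same stage as Sox10, and it did not pass the filter. The part of these cells in the level of Sox10 was not tested. Of the 8 genes on that list, 3 were tested, and 1 was higher at P0 against E12.5, Pou3f1 (3.51), which neurons make too, and 1 lower. In the radial glia and astrocyte list, beside Bcan, 7 of 12 were higher and 4 lower, with a median of 0.63 and with Aldh1l1 at 5.36, Gja1 at -4.25, Fgfr3 at -3.39 and Aldoc at -0.92. In the step into E15.5, when Bcan fell, 2 of these 12 were higher and 4 lower, beside 16.5% and 19.6% of all genes. Of 9 tested pericyte genes, 2 were higher at P0 against E12.5, Higd1b (4.68) and Rgs5 (1.09), and 5 were lower. Choroid plexus genes were lower in 6 of 7 in the same comparison.

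The genes whose course over the 10 libraries was most like that of a member were sought among 9214 genes that averaged 100 counts or more, by the root mean square difference of log2(CPM + 0.5) profiles centred on their means. For Olig1 these were Vsnl1 (0.270), Ptk2b (0.276) and Fabp3-ps1 (0.286), the last a pseudogene that can share reads with Fabp3. At E12.5 and E14 Olig1 lay at 0.187 to 0.442 CPM, below the added 0.5, which narrows its range in these profiles. Its ranking and distances therefore depend on that value. The genes nearest to Olig2 were Vgf (0.168), Cdk5r2 (0.270) and Prrt2 (0.303), while Olig1 and Olig2 differed from each other by 0.711. Among the 3 nearest to Pdgfra were Spint2 (0.247) and Prrg2 (0.266), and the nearest to Sox8 were Pid1 (0.114), Phkg2 (0.125) and Rnf5 (0.131). Pdgfra and Bcan differed by 0.331, the smallest difference of Pdgfra to any other member. Sox10, Bcan and Cspg4 averaged under 100 counts and were not searched.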

How the data were processed

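Ribosome footprints of 10 neocortex libraries, 2 at each of 5 stages, were analysed from 1 table of counts per gene deposited by the authors, with values as raw whole-number counts. Per the study's methods, adapters were removed, duplicates collapsed with random end bases, contaminants filtered and reads aligned with STAR (version 2.7.0 in the submitters' processing notes) to the mouse GENCODE release M12, and multi-mapping reads were admitted, so that near-identical genes may share counts. Whether a further quantification step made the deposited table is not given in the sources used here. Groups came from the sample titles, and 0 columns were left out.

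Symbols were found for 22274 of 22373 Ensembl identifiers. A gene was kept when both libraries of some stage together held 32 footprints or more, which left 13484. One coefficient per stage was fitted over all 10 libraries with limma 3.58.1 (voom) in R 4.3.3 and TMM scaling from edgeR 4.0.16, two-sided, with no replicate block and with Benjamini-Hochberg adjustment over all genes kept, and calls needed an adjusted p below 0.05 and 1 stage at least 25% above the other. Alternatives were size factors, total counts, 2 filters, edgeR's quasi-likelihood test, DESeq2 1.42.0, sample weights, a replicate block, separate fits of 2 stages and each library left out. Fits without P0 and without E12.5 and E14 were added after seeing the data. The model was tested on simulated data. Promoter sequences were read with Python 3.11.15. Comparisons that share a stage share its libraries.

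The 7 genes and the other lists were chosen with earlier results of these data known. Named beside the 7 were Pdgfa, Ncan, Vcan, Sox9, Nkx2-2, Gpr17 and Mbp, up to 4 genes of each list with the largest called change among those averaging 100 counts or more, and the 3 genes nearest in course to each member. Other genes (Pdgfrb, Pdgfd, Ptch1, Shh, Gli1, Opalin, Mog, Mobp, Foxd3, Cdh19, Egr2, Anpep and Fabp7) were picked after their values were seen. Some genes that the naming rule takes are not reported here. At depths of 7544404 to 36129988 footprints, 3 footprints were worth 0.0716 to 0.326 CPM.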

Additional observations from a re-analysis of the deposited data

How the results depend on the processing

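Under 18 to 21 alternatives for each comparison, 128 of 138 recounts of the called genes stayed within 1.5 times the count given, and 10 did not. Into E17 the count went from 3 to 0 when any one library of E15.5 or E17 was left out (0 to 4 over all 10 omissions) and to 0 in the fit without E12.5 and E14. These fits called 0 to 18 of all 13484 genes, against 9.04% with all libraries, so that nearly all genes lost their call there. Without those libraries limma still gave 3 members an unadjusted p under 0.05, and edgeR and DESeq2 on all libraries called 3. Into P0 it went from 4 to 2 with sample quality weights, to 0 with only the 2 stages compared (4 at an unadjusted p under 0.05), to 2 without E12.5 and E14, and to 0 or 2 when the first or second E17 library was left out (0 to 5 over the omissions). Over all genes these fits called 698 with the weights, 0 with the 2 stages, 1400 without E12.5 and E14, and 554 and 1197 without the first and second E17 library, against 20.5%. Fewer libraries entered all of these fits but the weighted one, and the cause of the lost calls was not tested for any of them. The fit without P0 also had fewer libraries. It called 2810 of all genes at E17 against E15.5 and 1062 at E14 against E12.5, where all libraries gave 1219 and 86.

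Changes that were not called turned sign in 12 cases. With total counts Pdgfra was at 0.039 (E14 against E12.5) and 0.19 (E17 against E12.5), and Sox8 and Sox10 at 0.14 and 0.16 (E15.5 against E14). With 1 library left out, E14 against E12.5 ran from -0.018 (without E14 replicate 1) to 0.95 for Olig1, from -0.13 to 0.10 (without E12.5 replicate 2) for Pdgfra, and from -0.32 to 0.80 for Sox10, which was at -0.32 without E12.5 replicate 1 and -0.19 without E14 replicate 1. Sox10 ran from -0.56 to 0.18 (without E14 replicate 1) in E15.5 against E14 and from -0.13 (without E12.5 replicate 1) to 0.98 in E17 against E12.5, and Sox8 from -0.10 (without E17 replicate 1) to 0.22 in E17 against E15.5, with -0.041 without E15.5 replicate 2. The cause was not tested.

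Nothing in the labels says whether equal replicate numbers pair samples across stages. Deviations from the stage means correlated between -0.64 and 0.43, over 0.1 in 5 of 10 pairs of stages. Every pair with E12.5 was negative (-0.64 to -0.11), and the 5 pairs over 0.1 lay among the later stages (0.21 to 0.43). These values do not settle whether the numbers pair the samples. The replicate block ended 1 call, that of Bcan at P0 against E17 (0.98), which left 3 members called there, and it left 0, 3, 3, 3 and 4 members called in E14 against E12.5, E15.5 against E14, E17 against E15.5, E17 against E12.5 and P0 against E12.5, and 6 in the F test. Levels per kilobase were not run, for want of coding lengths. With 2 libraries a stage and 5 to 10 footprints of Olig1 in each early library, early differences of the low genes were not detectable at this depth.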
